A study of Mus musculus with 2 samples.

Results

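The 10 genes described here encode the interleukin 1 (IL-1) and interleukin 18 ligands, their receptors and natural antagonists, caspase 1 and the inflammasome sensor NLRP3. They were chosen by name, as the identifiers of the count table that map to Il1a, Il1b, Il18, Il1r1, Il1rap, Il1r2, Il1rn, Il18bp, Nlrp3 and Casp1, and each symbol matched 1 of the 49585 identifiers. All 10 had at least 50 reads over both libraries, the minimum used throughout.

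Messenger RNA was sequenced from CD11b+ cells, a myeloid fraction pulled with magnetic beads from subcutaneous tumours that had grown from mouse pancreatic cancer cell lines. The Nrp2 knockout library (labelled Test NRP2 KO) came from mice injected daily with tamoxifen from the time their tumours were palpable, and the control library from mice for which the labels name no tamoxifen. The labels give both groups the genotype NRP2f/fCSF1R-iCRE on a BL6 background, that is, Nrp2 alleles flanked by loxP sites and an inducible Cre driven by the Csf1r promoter of monocytes and macrophages, so the drug and the deletion cannot be told apart. Tumours were taken at 15 days, RNA of 3 animals was pooled per group, while the labels state neither the age of the mice nor the names of the tumour lines. Each group is thus 1 library without replicates, which gives no p-value for any difference below.

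The knockout library held 68554172 counted reads and the control library 64153676. The targeted gene Nrp2 was at 15.2 CPM (counts scaled to the normalised library size) in the knockout library, against 148 CPM in the control library. Itgam, which encodes CD11b itself, was at 422 and 294 CPM in the knockout and control libraries. Where a gene was detected in just 1 library, with over 4 reads, the median count was 24 in the knockout library and 47 in the control library, and that many reads were taken as 1 captured fragment. Intervals given with a ratio are 95% exact Clopper-Pearson intervals on reads divided by these values, and they cover counting error only, not differences between animals. Esr1, the oestrogen receptor gene to which tamoxifen-inducible recombinases are commonly fused in part, was at 388 CPM in the knockout library and 11 CPM in the control library, 35.4-fold higher (interval 21.5 to 62.9). Counts per gene cannot separate Esr1 from such a fusion, and whether the recombinase was present or expressed alike in both pools was not tested. CD11b+ cells are a mixture, and in a bulk library fewer cells of a type and less RNA per cell cannot be told apart.

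IL-1α and IL-1β signal through the receptor IL-1R1 together with the accessory chain IL-1RAP. The receptor antagonist encoded by Il1rn occupies IL-1R1 without signalling, the type II receptor encoded by Il1r2 binds the ligands as a decoy, and IL-18 binding protein neutralises IL-18. IL-1β and IL-18 are made as inactive precursors that caspase 1 cleaves once a sensor such as NLRP3 has assembled an inflammasome. Transcript levels say nothing of cleavage or secretion. Monocytes, macrophages and neutrophils are the main sources of IL-1β in inflamed tissue.

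The upstream sequences of 3 genes are shown because they belong to a pair of ligand genes on 1 stretch of chromosome 2 that differed in ratio, and to the receptor gene with the highest ratio. Each is the stretch of 250 bases before a RefSeq start of the gene (GRCm38.p6), written 5′ to 3′ on the strand of the gene. Capitals mark matches to TATAAA, the core of the TATA box, and to GGAAGT, the core bound by PU.1, a myeloid transcription factor, in either orientation. The first is Il1b at chr2:129371140-129371389 (minus strand), the second Il1a at chr2:129309973-129310222 (minus strand) and the third the upstream one of the Il1r1 starts, at chr1:40224830-40225079 (plus strand).
Il1b: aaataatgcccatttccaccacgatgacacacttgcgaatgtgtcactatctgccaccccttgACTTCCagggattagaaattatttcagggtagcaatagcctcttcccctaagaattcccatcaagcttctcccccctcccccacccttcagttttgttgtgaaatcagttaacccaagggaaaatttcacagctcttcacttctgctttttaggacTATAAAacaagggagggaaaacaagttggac
Il1a: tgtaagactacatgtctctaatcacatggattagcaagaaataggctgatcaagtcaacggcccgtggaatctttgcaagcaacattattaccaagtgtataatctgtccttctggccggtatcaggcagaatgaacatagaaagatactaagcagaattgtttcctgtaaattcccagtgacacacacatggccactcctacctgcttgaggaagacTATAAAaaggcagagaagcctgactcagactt
Il1r1: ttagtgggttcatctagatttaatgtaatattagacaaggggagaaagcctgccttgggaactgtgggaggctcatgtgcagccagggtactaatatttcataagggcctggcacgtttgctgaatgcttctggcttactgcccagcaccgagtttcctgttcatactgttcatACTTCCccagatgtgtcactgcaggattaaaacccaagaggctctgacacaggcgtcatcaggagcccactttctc
TATAAA began 31 bases before the start in Il1b and 32 bases before it in Il1a, and 12.4% of all 32851 promoter entries of the same length hold it on either strand. GGAAGT was matched on the reverse strand in Il1b and in Il1r1 and is held by 19.7% of entries. The motifs did not overlap each other in these windows. Among members whose sequences are not shown, Il1r2 and Il18bp also held GGAAGT, and Il18 held TATAAA on the reverse strand. The other Il1r1 start held neither motif. A match describes letters and not binding.

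Il1b was the member with most reads in both libraries, and it was lower in the knockout library. It had 106488 reads in the knockout library and 241276 in the control library, or 1590 and 3675 CPM. By reads it stood 63rd among all genes in the knockout library and 19th in the control library. The difference was 2.31-fold, lower in the knockout (interval 2.22 to 2.41, log2 ratio -1.21). Of the 2548 genes with at least 10000 reads, 1.41% had a lower log2 ratio. With a trend over GC content and transcript length removed, the log2 ratio was -0.98, just short of 2-fold. Il1b (ENSMUSG00000027398) lies on the minus strand of GRCm38 chromosome 2, from 129364570 to 129371139. It shares 25 exon bases with Il1bos on the opposite strand, which had 92 reads in the knockout library and 299 in the control library, too few to move its level.

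Il1a, the nearby ligand gene, did not share the lower level of Il1b. It lies 54.6 kb away on the same strand (129299610 to 129309972), with 2 annotated genes wholly between them, and had 32860 reads in the knockout library and 29291 in the control library, or 491 and 446 CPM. The ratio was 1.1, knockout over control, and its interval of 0.999 to 1.21 reaches 1. Il1b had 3.35 times the reads of Il1a per kilobase of exon in the knockout library (interval 3.16 to 3.57) and 8.53 times in the control library (7.84 to 9.28). These quotients are taken within a library, so they do not depend on normalisation, and the pairs they compare were chosen after the values were seen.

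Il18 was far less abundant, at 29.8 CPM in the knockout library and 32.1 CPM in the control library (1995 and 2106 reads). The ratio of 0.928 had an interval of 0.638 to 1.37, and its direction turned when the GC content and length trend was removed (log2 ratio 0.18).

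**Figure D1:**
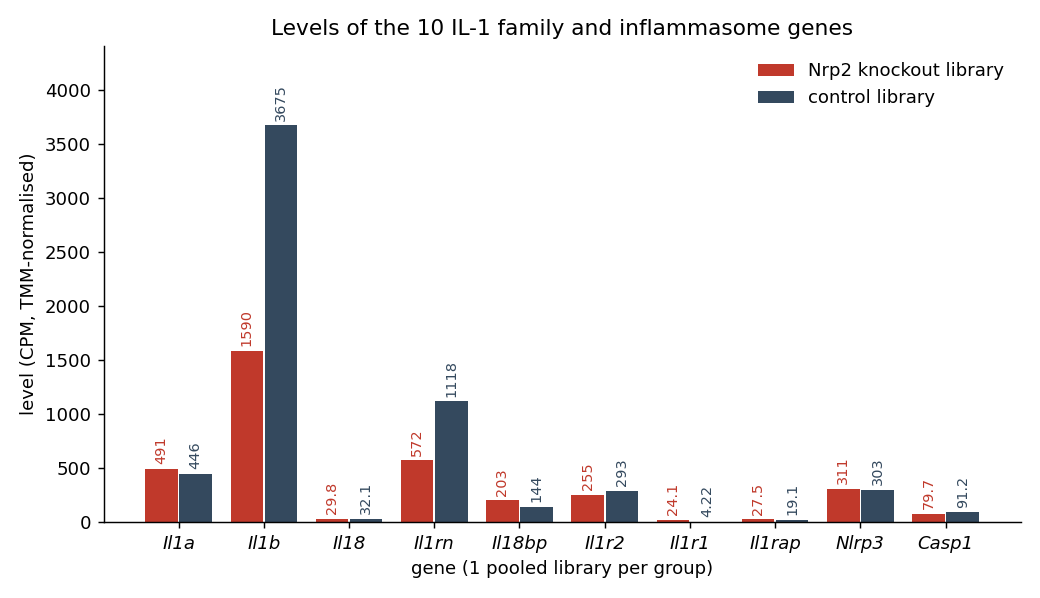
Levels of the 10 genes in CPM with TMM-normalised library sizes, with the knockout library (red) left of the control library (dark blue) for each gene and each value printed above its bar. Il1b is at 1590 and 3675 CPM and Il1rn at 572 and 1118 CPM in the knockout and control libraries, and the other genes are at 491 CPM or below in both.

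Of the receptor genes, Il1r1 had the highest ratio of all members. The signalling receptor gene had 1616 reads in the knockout library and 277 in the control library, or 24.1 and 4.22 CPM. It was 5.72-fold higher in the knockout library (interval 2.48 to 16.3, log2 ratio 2.51). The interval is wide because 277 reads correspond to 5.89 captured fragments, against 67.3 in the knockout library. Il1r1 (ENSMUSG00000026072, chromosome 1, 40225080 to 40317257, plus strand) is expressed by many stromal and epithelial cells as well as leukocytes.

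The accessory chain gene Il1rap was at 27.5 CPM in the knockout library and 19.1 CPM in the control library (1844 and 1251 reads). Its ratio of 1.44 had an interval of 0.919 to 2.34, which includes 1. Per kilobase of exon, Il1rap had 0.639 times the reads of Il1r1 in the knockout library (0.455 to 0.9) and 2.53 times in the control library (1.02 to 7.58).

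The decoy receptor gene Il1r2 remained far above the signalling receptor in both libraries. It had 17079 reads in the knockout library and 19259 in the control library, or 255 and 293 CPM, and was 1.15-fold lower (1.02 to 1.3). With more reads taken per fragment (the 75th percentile, not the median) the interval of its ratio was 0.75 to 1.01 and included 1. With the GC content and length trend removed the direction turned (log2 ratio 0.03). Per kilobase of exon, Il1r2 had 35.2 times the reads of Il1r1 in the knockout library (27.4 to 46) and 232 times in the control library (105 to 643).

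Il1r2 and Il1r1 open a cluster of receptor genes on chromosome 1 that spans 477.6 kb and goes on with Il1rl2, Il1rl1, Il18r1 and Il18rap. Il1rl2, the receptor for IL-36, had 4067 reads in the knockout library and 1766 in the control library and was 2.26-fold higher (1.58 to 3.31). Il18rap, the accessory chain for IL-18, had 3290 and 1550 reads and was 2.08-fold higher (1.41 to 3.14). Il1rl1, the receptor for IL-33, had 682 and 617 reads, a ratio of 1.08 (0.545 to 2.27). Il18r1, the ligand-binding IL-18 receptor chain, had 207 and 340 reads, a ratio of 0.597 (0.196 to 1.87). The cluster thus held ratios in both directions, and of its 6 genes Il1r1, Il1rl2 and Il18rap had intervals wholly above 1.

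Among the soluble antagonists, Il1rn was lower beside Il1b. It had 38313 reads in the knockout library and 73398 in the control library, or 572 and 1118 CPM, and was 1.95-fold lower (1.82 to 2.1, log2 ratio -0.97). Of the genes with at least 10000 reads, 2.2% had a lower log2 ratio. Under scaling by total count the log2 ratio was -1.03, past 2-fold. Il1b had 8.07 times the reads of Il1rn per kilobase of exon in the knockout library (7.62 to 8.55) and 9.54 times in the control library (9.01 to 10.1), so the quotient of agonist to antagonist transcripts differed less than either gene did. Il1rn (chromosome 2, 24336853 to 24351494, plus strand) has alternative first exons for secreted and intracellular forms, which gene-level counts do not separate.

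Il18bp went the other way. It had 13601 reads in the knockout library and 9439 in the control library, or 203 and 144 CPM, and was 1.41-fold higher (1.2 to 1.67). It shares 80 exon bases with Numa1 on the opposite strand, which had 4722 and 6512 reads, and the labels do not say if reads were assigned by strand. Per kilobase of exon, Il18bp had 2.32 times the reads of Il18 in the knockout library (1.84 to 2.96) and 1.53 times in the control library (1.1 to 2.16).

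The inflammasome genes among the members, Nlrp3 and Casp1, were close to even between the libraries. Nlrp3 had 20840 reads in the knockout library and 19869 in the control library, or 311 and 303 CPM. Its ratio of 1.03 had an interval of 0.914 to 1.16, and the direction turned under scaling by total count and by upper-quartile factors (log2 ratios -0.03 and -0.02). Casp1 had 5337 and 5991 reads, or 79.7 and 91.2 CPM, a ratio of 0.873 (0.699 to 1.09).

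**Figure D2:**
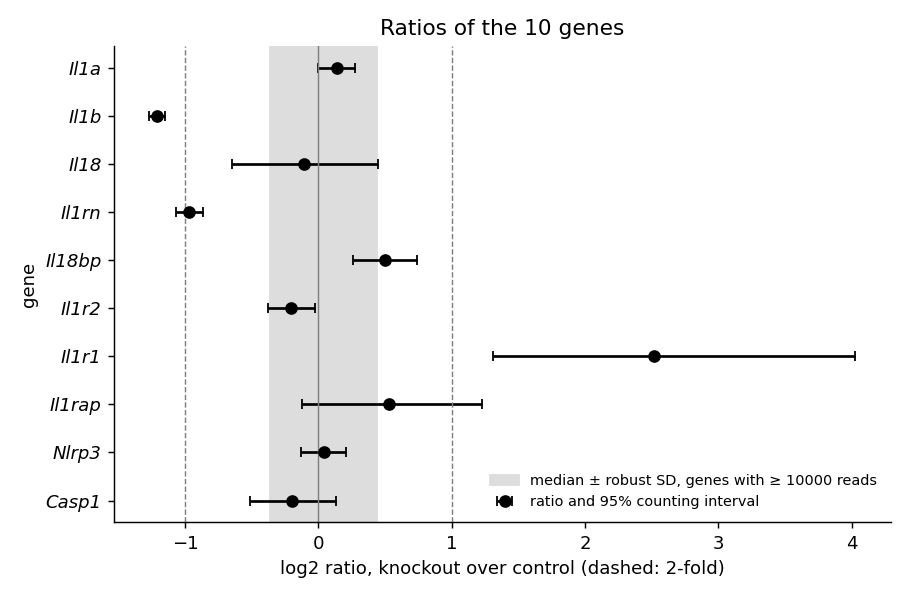
Log2 ratio of each of the 10 genes, knockout over control, with its 95% counting interval (bars), over the median ± robust SD of all genes with at least 10000 reads (grey band). The interval of Il1b (log2 ratio -1.21) lies wholly past 2-fold lower and that of Il1r1 (2.51) wholly past 2-fold higher, while the interval of Il1rn (-0.97) spans the 2-fold line.

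As a group the 10 genes did not move in 1 direction: 5 had a ratio above 1 and 5 below, with a median log2 ratio of -0.03, beside -0.01 over all 14420 measured genes, and the sign of that median turned with the GC content and length trend removed (0.13). At least 2-fold higher was 1 member, Il1r1, where 10.8% of all measured genes were, and at least 2-fold lower was 1 member, Il1b, where 14.7% were. These shares are near those of all genes. Intervals wholly past 2-fold were rarer, at 0.853% of genes for higher and 1.03% for lower, and Il1r1 and Il1b each had one. Shares of intervals were not matched by depth: all 10 members had at least 1000 reads, as did 9054 of the 14420 genes. They therefore do not show an excess among the members. An interval wholly above 1 was found for 2 members (12.6% of all measured genes) and wholly below 1 for 3 (11.1%). Of the 7 members with at least 10000 reads Il1b alone was at least 2-fold lower, where 2.0% of the 2548 genes of that depth were, and 0 were at least 2-fold higher, where 3.65% were. The authors' deposited table, also made from 1 library per group, gives log2 fold changes of -1.19 for Il1b (standard error 0.523), -0.95 for Il1rn (0.489) and 2.53 for Il1r1 (1.02). In the authors' deposited table the lowest adjusted p of a member was 0.933, that of Il1r1, and the lowest of any gene was 0.331.

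**Figure D3:**
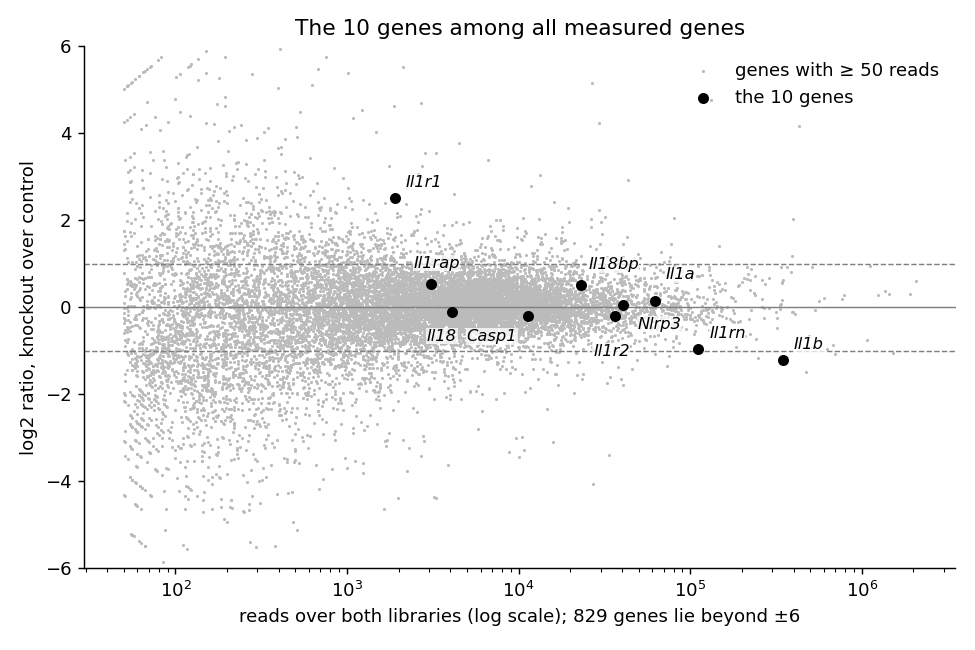
Log2 ratio, knockout over control, against reads over both libraries (log axis) for genes with at least 50 reads (grey) and the 10 genes (black, named), with dashed lines at 2-fold. Il1b lies at the lower edge of the genes with similar reads, Il1r1 lies among the higher ratios at its depth, and 829 genes fall beyond the plotted range of 6.

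The order of levels per kilobase of exon was led by Il1b and Il1a in both libraries. In RPKM (CPM per kilobase of exon), Il1b was at 834 in the knockout library and 1927 in the control library, and Il1a at 249 and 226. Next came Il1r2, at 134 RPKM, and Il1rn, at 103, in the knockout library, and Il1rn, at 202 RPKM, and Il1r2, at 154, in the control library. Nlrp3 followed in both, at 76.7 and 74.6 RPKM in the knockout and control libraries, near Il18bp, at 67.1, in the knockout library. Casp1, at 53.2 and 61 RPKM, and Il18bp, at 47.5 in the control library, changed places with each other. Il18 came after them in both libraries, at 28.9 and 31.1 RPKM. At the low end, Il1r1 was at 3.79 RPKM in the knockout library and 0.663 in the control library, and Il1rap at 2.42 and 1.68.

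The other genes of the pathway were taken from lists of 74 genes, written with earlier results of these data known, of which 66 had at least 50 reads. At least 2-fold higher were 7 of the 66, or 10.6%, near the 10.8% of all measured genes. At least 2-fold lower were 2, or 3.03%, where 14.7% of all measured genes were. Both all-gene shares were smaller at depth, at 3.65% higher and 2.0% lower among genes with at least 10000 reads. The pathway genes were not matched to all genes by depth, so these shares do not show a shortage of lower genes. The median log2 ratio of the pathway genes was 0.12. Of the 6 other IL-1 family ligands 2 were measured. Il33, an alarmin, had 104 reads in the knockout library and 270 in the control library, a ratio of 0.378 with an interval of 0.0822 to 1.59. Il36g, listed in the annotation as Il1f9, had 1250 and 916 reads, a ratio of 1.34 (0.781 to 2.38). Il1f10, Il1f8 and Il1f5 were at 0 in both libraries. Sigirr, an inhibitory receptor of the family, had 147 and 403 reads, with 1 inside the interval of 0.105 to 1.14 around its ratio of 0.358.

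None of the 18 measured genes of IL-1 receptor signalling was 2-fold different. Of all measured genes, 10.8% were at least 2-fold higher and 14.7% lower, and of those with at least 10000 reads 3.65% and 2.0%. Those furthest from even were Traf6, a ubiquitin ligase, at 117 and 63 CPM in the knockout and control libraries, 1.86-fold higher (1.47 to 2.38), and the kinase genes Irak2, 1.81-fold higher (1.48 to 2.24), and Map3k7, 1.72-fold higher (1.29 to 2.34). Nfkb1, the precursor of the p50 subunit of NF-κB, was at 134 and 201 CPM, 1.51-fold lower (1.29 to 1.77). Nfkbia, the inhibitor IκBα, was at 808 and 647 CPM, a ratio of 1.25 (1.16 to 1.35). Tab2, an adaptor of the kinase complex, was even at a ratio of 0.983 (0.839 to 1.15). Myd88, named after its values were seen, was 1.5-fold lower (1.24 to 1.82). Of the 18 genes, 4 had an interval wholly above 1 and 2 wholly below.

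Of 12 measured sensors and adaptors of inflammasomes, 2 were higher by 2-fold or more and 0 lower (10.8% and 14.7% of all measured genes). Intervals wholly past 2-fold numbered 0 in this list. Naip1, a sensor of bacterial secretion systems, had 889 reads in the knockout library and 181 in the control library and was 4.81-fold higher (1.7 to 19.2), but it belongs to a family of near-identical genes among which counting could split reads. Its paralogue Naip2 had 7171 and 7771 reads, a ratio of 0.904 (0.745 to 1.1). Nlrp10 had 233 and 66 reads, with an interval of 0.603 to 62 for its ratio of 3.46. Pycard, the adaptor ASC that joins NLRP3 to caspase 1, was at 153 and 106 CPM, 1.45-fold higher (1.2 to 1.76). Nlrc4, the partner of the NAIP sensors, was 1.71-fold lower (1.09 to 2.68), and Mefv, which encodes pyrin, 1.41-fold lower (1.08 to 1.82).

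The 14 measured effectors and regulators held none past 2-fold. Among all measured genes 10.8% were higher by that much and 14.7% lower, or 3.65% and 2.0% of those with at least 10000 reads. Ninj1, a membrane rupture protein, was at 579 CPM in the knockout library and 362 in the control library, 1.6-fold higher (1.45 to 1.77). Txnip, a thioredoxin-binding protein, was at 581 and 338 CPM, 1.72-fold higher (1.55 to 1.91), and Brcc3, a deubiquitinase, was 1.81-fold higher (1.14 to 2.98). Panx1, a channel that releases ATP, was 1.7-fold lower (1.17 to 2.47), and Hsp90ab1, a chaperone, 1.44-fold lower (1.35 to 1.54).

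Genes that IL-1 is known to induce went both ways. Of 15 measured, 3 were higher by 2-fold or more and 0 lower, with a median log2 ratio of 0.27. The shares were 10.8% and 14.7% of all measured genes, and 3.65% and 2.0% of those with at least 10000 reads. Of the 3, 2 (Saa3 and Lcn2) were put on the list with their higher level known. Saa3, a serum amyloid of the acute phase, was at 1906 CPM in the knockout library and 70 in the control library, 27.2-fold higher (22.3 to 33.6), and Lcn2, a siderophore-binding protein, at 36.8 and 3.9 CPM, 9.45-fold higher (4.05 to 28). Ptges, a prostaglandin E synthase, was 2.72-fold higher (1.31 to 6.34), while Ptgs2, the inducible cyclooxygenase ahead of it in that pathway, was at 412 and 781 CPM, 1.89-fold lower (1.74 to 2.06). Ptgs2 was named after its values were seen. Cxcl2, a neutrophil chemokine, was at 1352 and 1036 CPM, 1.3-fold higher (1.23 to 1.39), and Tnfaip3, an inhibitor of NF-κB signalling, at 1224 and 739 CPM, 1.66-fold higher (1.54 to 1.78). Il6, Icam1 and Nfkbiz were also named after their values were seen. Il6 was at 23.9 and 37.9 CPM, a ratio of 0.629 (0.432 to 0.92). The ratio of Icam1 was 0.816 (0.708 to 0.941), and that of Nfkbiz 0.864 (0.778 to 0.96). Of the 15 genes, 8 had an interval wholly above 1 and 4 wholly below.

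**Figure D4:**
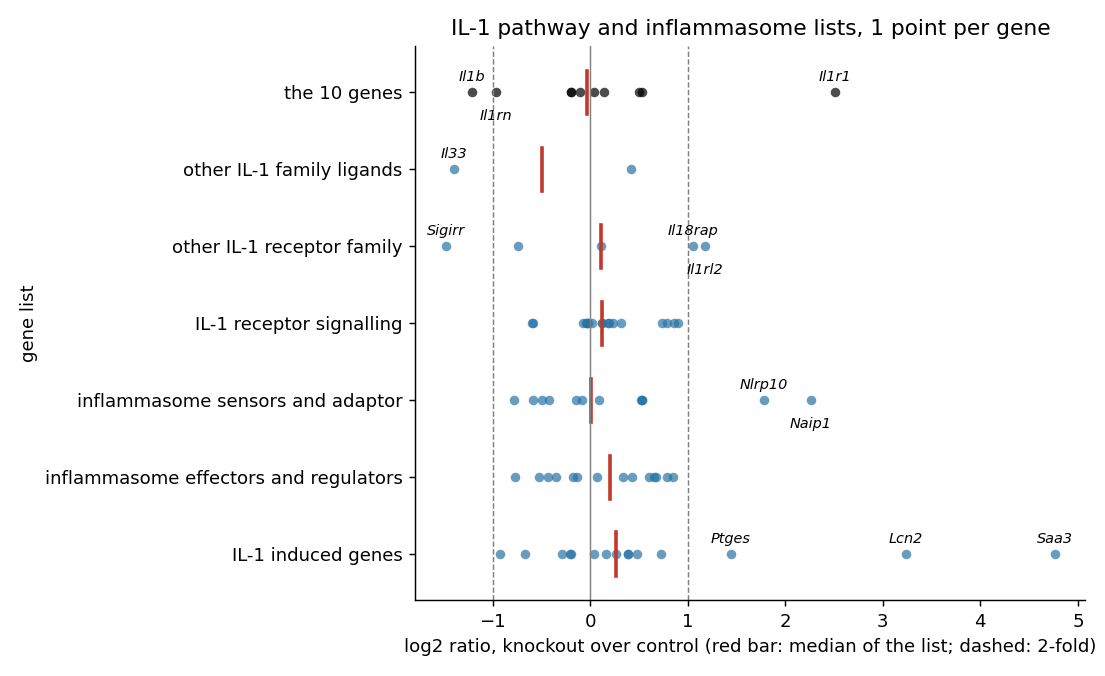
Log2 ratio, knockout over control, of each measured gene (1 point per gene) in the lists of the pathway, with the median of each list as a red bar and dashed lines at 2-fold. The 10 genes have a median of -0.03 and spread from -1.21 for Il1b to 2.51 for Il1r1, and the genes IL-1 is known to induce reach 4.77 for Saa3.

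Markers of several cell types differed between the libraries beside these genes, and their part in the ratios was not tested. Counts of genes past 2-fold in these lists take genes at 0 in 1 library by a fold that rests on the prior count. For all marker lists below, the background is that upward differences of this size were seen in 10.8% of all measured genes. Downward ones were seen in 14.7%. With a minimum of 10000 reads these background shares were 3.65% and 2.0%. The marker lists were not matched to all genes by depth. The myeloid list (Itgam, Lyz2, Cd14 and others) was detected in full, with 0 of 8 genes past 2-fold. Its summed level was 22041 CPM in the knockout library and 18770 in the control library, most of it Lyz2 at 15875 and 12932 CPM. The list went both ways, with 4 of the 8 intervals wholly above 1 and 4 wholly below. Macrophage markers summed to 33284 and 26587 CPM, with Apoe and C1qb as the most counted and 1 of 10 at least 2-fold higher. Of these 10, 4 had an interval wholly above 1 and 5 wholly below. Neutrophil markers, whose cells carry much Il1b and Il1r2, summed to 1876 and 1707 CPM, with 6 of 14 higher by 2-fold or more and 1 lower. Ly6g, Camp and Elane were at 0 in the control library, and Mpo in both. In the knockout library Ly6g, Camp and Elane had 96, 18 and 51 reads, and their intervals include 1. Of the 14 measured genes, 7 had an interval wholly above 1 and 2 wholly below. Ngp, Ltf and Stfa2l1 were named after their values were seen. Ngp had 1033 reads in the knockout library and 2 in the control library, with an interval from 5.46 upward. Ltf was 3.16-fold higher (1.42 to 8.25) and Stfa2l1 2.73-fold higher (1.6 to 4.93). The most counted genes of the list went both ways: S100a9 was at 449 and 297 CPM, 1.51-fold higher (1.35 to 1.7), and Retnlg at 279 and 347 CPM, 1.24-fold lower (1.11 to 1.4). Mmp9 and S100a8 were named after their values were seen. Mmp9 was at 128 CPM in the knockout library and 389 in the control library, 3.05-fold lower (2.66 to 3.49), and S100a8 at 331 and 172 CPM, 1.92-fold higher (1.67 to 2.22).

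Monocyte markers summed to 8241 CPM in the knockout library and 2953 in the control library, with a median log2 ratio of -0.42. Chil3, at 6067 and 338 CPM, made up most of the knockout sum but little of the control sum. Of the 10 genes, 3 were higher by 2-fold or more and 4 lower, with intervals wholly past 2-fold for 2 and 4. The lower ones, named after their values were seen, were Ccr2 (2.66-fold), Plac8 (3.16-fold), Cx3cr1 (8.58-fold) and Treml4 (9.23-fold). The higher ones were Chil3, Ly6c2 (2.75-fold, interval 2.14 to 3.56) and Vcan (2.21-fold, 1.41 to 3.6), the last 2 also named after their values were seen. Conventional dendritic cell markers summed to 805 and 1114 CPM, with 8 of 12 at least 2-fold lower, 0 higher and Xcr1 at 0 in the knockout library. Of the 12 intervals 8 were wholly below 1 and 1 wholly above, that of Cd24a, 1.48-fold higher (1.31 to 1.68). The interval of Xcr1 includes 1. Eosinophil markers summed to 80.8 and 264 CPM, with 4 of 5 lower and Epx at 0 in both. Mast cell and basophil markers summed to 88.7 and 97.5 CPM, with 3 of 7 higher and 1 lower. Mcpt8 and Ms4a2 were at 0 in the control library, with 81 and 27 reads in the knockout library. T cell markers summed to 66 and 203 CPM (11 of 12 at least 2-fold lower), NK cell markers to 39.8 and 114 CPM (6 of 8) and B cell markers to 21.4 and 201 CPM (6 of 7, with Pax5 at 0 in the knockout library). Intervals wholly below 1 were fewer, at 10 of the T cell, 4 of the NK cell and 3 of the B cell markers, and that of Pax5 includes 1.

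Lists of cells outside the blood lineage are given beside Il1r1, which such cells can express. Fibroblast markers summed to 232 CPM in the knockout library and 384 in the control library, with 1 of 10 higher by 2-fold or more and 3 lower, and endothelial markers to 23.2 and 89.2 CPM, with 7 of 8 lower. Of the 8 endothelial genes 4 had an interval wholly below 1. Epithelial tumour cell markers summed to 129 and 194 CPM, with 3 of 7 lower and Cldn4 at 0 in both, and keratinocyte markers to 7.27 and 27.2 CPM. Of the 8 keratinocyte genes 3 were at 0 in the knockout library (Krt15, Lor, Krtdap) and 4 in the control library (Krt10, Krt1, Krt15, Lor). Adipocyte markers summed to 218 CPM in the knockout library and 111 in the control library, with 8 of 9 at least 2-fold higher. Adipoq, Plin1, Retn and Pck1 were at 0 in the control library and Lep in both. An interval wholly above 1 was found for 4 of the 9, while those of Plin1, Retn, Pck1, Cidec and Lpl include 1. Without Lpl, the most counted adipocyte gene, at 101 and 97.5 CPM, the sums were 117 and 13.5 CPM. Adipoq had 454 reads in the knockout library, and the part of adipocytes in the ratio of Il1r1 was not tested. The adipocyte list was added after the ratio of Il1r1 and earlier results on fat genes were known.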

How the data were processed

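Each group is 1 pooled library, made with a stranded mRNA kit (TruSeq) per the labels' protocols. Named in the submitters' processing notes are cutadapt, HISAT2, featureCounts and GRCm38, without versions, options or an annotation release. The authors deposited raw read counts per Ensembl gene, of read 1 only per the file headers. They also deposited a table with log2 fold changes, their standard errors and adjusted p-values, whose tool the sources used here do not name.

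Symbols were matched for 49326 of 49585 identifiers, and coordinates and exon lengths came from GENCODE M21 (GRCm38). Upstream sequences are from RefSeq (GRCm38.p6), in which all 10 genes had an entry, 14 in all. Levels are CPM with TMM library sizes from edgeR 4.0.16 (factors 0.977 for the knockout and 1.02 for the control library) in R 4.3.3, and RPKM uses the union of exons. Log2 ratios use a prior of 0.5 counts. With 1 library per group no test was possible, so genes are described by size, at least 2-fold, and by an exact counting interval computed with scipy 1.17.1. PCR reads without molecular identifiers are not independent molecules, so intervals cover counting error only. The ratio code was tested on simulated data.

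The members, the gene lists and the comparisons were chosen with earlier results of these data known. Named are all members, then per pathway list the 3 genes with the largest absolute ratio, the 3 with most reads and any with an interval wholly past 2-fold. Alternatives were DESeq2 1.42.0 size factors, total counts, upper-quartile factors, a prior of 5, no minimum or 1000 reads, a GC content and length trend (mgcv 1.9.3), other units for the interval and, added after the data were seen, a threshold of 1.5-fold.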

Additional observations from a re-analysis of the deposited data

How the results depend on the processing

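Across scaling, prior, minimum and trend alternatives, 67 of 70 recomputed log2 ratios of members lay within the member's counting interval. The 3 outside it were Il1b under total counts (-1.28), and Il1b (-0.98) and Il1r2 (0.03) with the GC content and length trend removed. Neither member past 2-fold, Il1b or Il1r1, changed sign. Il1b ranged from -1.28 to -0.98, Il1rn from -1.03 to -0.90 and Il1r1 from 2.39 to 2.53. The members at least 2-fold lower numbered 2 under total counts and under upper-quartile factors, where Il1rn joined Il1b, 2 at a threshold of 1.5-fold, and 0 with the GC content and length trend removed. That trend also turned the median log2 ratio of members to 0.13, against -0.03, and the cause was not tested. Of the pathway genes, 0 were at least 2-fold lower among those with at least 1000 reads, since Il33 and Sigirr fall below that minimum, and 17 were higher and 9 lower at 1.5-fold. On undivided reads all members had an interval off 1, 5 wholly above and 5 wholly below. With reads per fragment taken from genes with any reads, 4 were wholly above 1, and with its 75th percentile 2 were wholly below 1 instead of 3, since the interval of Il1r2 then reached 1. No paired analysis was possible because each group has 1 library, and no replicate could be left out. Depth limits Il1r1, Il1rap and Il18 most, and the floor for a gene without reads is 3 fragments (72 reads in the knockout library, 141 in the control library).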
